A study of Homo sapiens with 4 samples.

Results

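The DNA methylation genes described here are those of the 3 DNA methyltransferases DNMT1, DNMT3A and DNMT3B, of the DNMT1 partner UHRF1, of the 3 dioxygenases TET1, TET2 and TET3, and of the glycosylase TDG. They were chosen by symbol, and all 8 were found among 19734 gene rows. RNA came from BE(2)C:MYCN-ORF, a human neuroblastoma cell line that carries a MYCN open reading frame in every group, and was polyA-selected and sequenced 48 hours after transfection. The groups were siMYCN with the let-7a mimic, siMYCN with the control mimic miRCon, siCon with let-7a, and siCon with miRCon as the control for both treatments. Each of these 4 groups was 1 library, so no group had a replicate.

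Methylation of cytosine at CpG sites is set by DNMT3A and DNMT3B, the de novo enzymes, and copied to the new strand after replication by DNMT1, which UHRF1 recruits to sites methylated on the parent strand. TET1, TET2 and TET3 oxidise methylcytosine, and TDG cuts out the more oxidised forms so that base excision repair can restore cytosine. MYCN is the transcription factor amplified in many aggressive neuroblastomas, and let-7 miRNAs are small RNAs that lower the RNAs whose 3′ UTR pairs with their seed.

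Values were read as TPM-like, that is, as scaled by transcript length and by library total. Comparisons of levels between genes rest on the scaling by length, which the library sums cannot check. The values keep no read depth, so the depth is unknown. They summed to between 855811 and 862049 per library. MYCN, the siRNA target, stood at 1197 and 1238 in the siMYCN libraries with let-7a and with miRCon, against 1433 and 1449 in the siCon libraries with let-7a and with miRCon. This was a small difference, with a log2 fold change of -0.24, and MYCN did not pass the test used for the genes below. Its gene-level value can mix the introduced reading frame with the cells' own gene. All 8 noradrenergic neuroblastoma markers were measured, with summed levels of 1410 and 1377 with siMYCN against 1703 and 1593 with siCon, in the same order of mimics. The 5 blood markers reached at most 0.251 and the 5 epithelial markers at most 6.23, with 3 of the epithelial markers at 0 in every library. Of the 5 fibroblast markers, 4 were above a mean of 5, with summed levels of 155 and 198 with siMYCN against 152 and 181 with siCon. LUM was the highest of them at up to 123, and COL1A2 reached at most 0.185; their part in the results was not tested.

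The sequences that bear on the mimic are the let-7a seed and its matches in these genes, shown because let-7 targets usually hold one. The mature let-7a (22 bases, RefSeq, GRCh38.p14) is given with its seed, bases 2 to 8, in capitals.
hsa-let-7a-5p: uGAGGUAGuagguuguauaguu
In the longest annotated 3′ UTR of each gene (GENCODE release 29, GRCh38), TET3 held 3 matches of at least 7 bases, and TET2, DNMT3B and UHRF1 held 1 each. The capitals mark CTACCTCA, the 8mer, at chr2:74104953-74104978, and TACCTCA, the 7mer with an A opposite the first base of the miRNA, at the others. These lie at chr2:74102179-74102204 and chr2:74106738-74106763 for TET3, chr4:105237969-105237994 for TET2, chr20:32808004-32808029 for DNMT3B and chr19:4961935-4961960 for UHRF1, all on the plus strand.
TET3 8mer: actacatgtctaacCTACCTCAaatc
TET3 7mer, first: gccagggagccagcgTACCTCAgcgt
TET3 7mer, second: aataatttttttaaaTACCTCAaaaa
TET2 7mer: aatatgatacaggcaTACCTCAgaga
DNMT3B 7mer: gtgggtcataccgtgTACCTCAgttc
UHRF1 7mer: aaagtttgcagcctaTACCTCAataa
DNMT3A held 3 matches of TACCTC, the 6mer, and DNMT1, TET1 and TDG held none of these words. Among 8914 tested genes with a 3′ UTR, the best match was an 8mer in 4.32% and this 7mer in 7.39%, while 70.9% had no match. TET3 has a 3′ UTR of 6000 bases, against a median of 1493 for these genes, so matches are more likely to fall in it. The TET2 3′ UTR read here ended at chr4:105242771, before the end of the gene at 105279816. The 3′ UTRs of other TET2 transcripts were not read.

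For the siRNA, promoters were read for CACGTG, the E-box that MYC proteins bind, in RefSeq windows of 250 bases before to 50 bases after each start (GRCh38.p14). The search covered both strands, on which this palindrome reads alike. It occurred in 7.26% of all 35116 windows, and in at least 1 window of 8.77% of genes. Of the 19 windows of the 8 genes, 5 held it, from 4 genes: TET3, TDG, TET2 and DNMT3A. Both DNMT3A windows with it (chr2:25252266-25252565 and chr2:25252214-25252513) overlap and hold the same match. Windows with at least 20 CpG made up 12 of these 19, against 41.2% of all windows, and CACGTG itself holds a CpG. The 8 genes also had more windows per gene (19 for 8) than all genes (35116 for 27305), which gives more places for a match. Whether the CpG content or the number of windows bears on the count was not tested. The windows of TET3 (chr2:73984660-73984959, plus strand) and TDG (chr12:103965622-103965921, plus strand) are shown because these genes had the largest siMYCN differences. The capitals mark CACGTG, which starts at -67 and -27 from the RefSeq start used for this TET3 window, and at -80 for TDG. The other TET3 window (chr2:74002442-74002741, plus strand) held no CACGTG. The TET3 window shown ends before the GENCODE start of the gene at chr2:73986404.
TET3 promoter: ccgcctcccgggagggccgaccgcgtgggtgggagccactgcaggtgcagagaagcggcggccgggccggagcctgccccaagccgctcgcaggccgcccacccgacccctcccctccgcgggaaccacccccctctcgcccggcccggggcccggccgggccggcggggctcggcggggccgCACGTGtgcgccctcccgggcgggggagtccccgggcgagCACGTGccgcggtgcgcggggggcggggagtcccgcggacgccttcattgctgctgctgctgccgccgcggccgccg
TDG promoter: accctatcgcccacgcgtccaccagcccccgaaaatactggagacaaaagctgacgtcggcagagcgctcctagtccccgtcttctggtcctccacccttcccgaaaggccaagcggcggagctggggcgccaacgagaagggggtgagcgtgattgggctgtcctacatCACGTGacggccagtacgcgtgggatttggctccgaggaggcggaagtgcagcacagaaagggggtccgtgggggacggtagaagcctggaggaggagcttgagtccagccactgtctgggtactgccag
TTTNNCGC, a word with the core of E2F sites, read on both strands, was found in 3 of the 19 windows, 1 of DNMT1 and 2 of UHRF1, and shared none of them with CACGTG. It occurred in 6.89% of all windows. Such a match is a description of letters and not a binding site.

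The levels of the 8 genes spanned a wide range and kept nearly the same order in every library. TDG was highest with a mean of 98.1 ± 14.3 (SD over the 4 libraries, which differ in treatment), followed by DNMT1 at 66.7 ± 5.86, UHRF1 at 61.4 ± 7.96 and DNMT3A at 44.5 ± 3.68. TET3 averaged 22.0 ± 6.96, TET1 17.0 ± 2.62, TET2 6.94 ± 0.755 and DNMT3B 3.65 ± 0.359. The mean of TDG exceeded that of 93.7% of all gene rows, and the mean of DNMT3B that of 49.9%. Between neighbours in this order, the ranges of DNMT1 (60.4 to 72.1) and UHRF1 (52.2 to 71.6) overlapped, as did those of TET3 (15.4 to 28.1) and TET1 (14.2 to 19.5). The other neighbours did not overlap. Of the 8 genes, 7 passed the filter of a mean of at least 5 and were tested among 9324 genes, and DNMT3B was not.

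**Figure D1:**
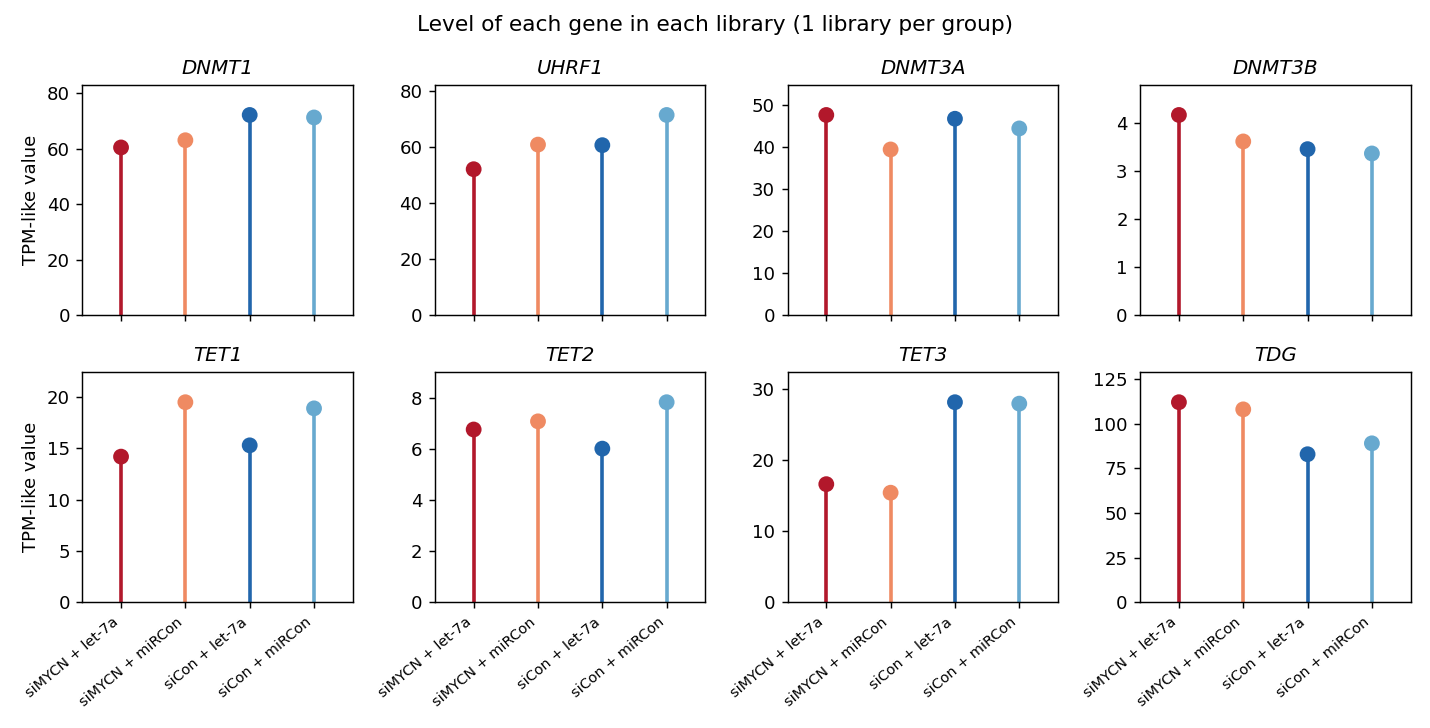
TPM-like value of each gene (vertical axis from 0, a scale per panel) in the 4 libraries, with 1 point per library. Both siMYCN libraries lie below both siCon libraries for TET3 (15.4 and 16.6 against 27.9 and 28.1) and above them for TDG.

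The siMYCN comparison asks what changed when MYCN was targeted. TET3 fell by 41.0% in the pair with let-7a and fell by 44.9% in the pair with miRCon, which was the largest difference among these genes. TDG was higher and DNMT1 and UHRF1 slightly lower in both pairs, without passing the test. DNMT3A, TET1 and TET2 differed in opposite directions in the pairs, 3 of 7 tested genes, where 29.4% of all tested genes did. Tests used limma over all genes with siRNA and mimic as additive terms, and an adjusted p (Benjamini-Hochberg) under 0.05 as the threshold. With 1 library per group, such a p sets an effect against the departure from additivity, the 1 residual degree of freedom, moderated over all genes; it is not a check between replicates.

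TET3 encodes the TET enzyme known for the oxidation of the paternal genome in the zygote and for its expression in neurons. It lies at chr2:73986404-74108176 on the plus strand (ENSG00000187605.15, GENCODE release 29, GRCh38), and no exon of another gene in the basic annotation overlaps its exons. Its level was 16.6 with siMYCN and let-7a and 15.4 with siMYCN and miRCon, against 28.1 with siCon and let-7a and 27.9 with siCon and miRCon. The siMYCN and siCon libraries did not overlap. The log2(value + 1) differences were -0.73 with let-7a and -0.82 with miRCon. Over both pairs the log2 fold change was -0.77 ± 0.128 (SE of limma, 4 libraries), with an adjusted p of 0.0483. Of the 9324 tested genes, 155 had a lower siMYCN effect. Limma called 1 of the 7 tested DNA methylation genes lower, this one, against 1.36% of all tested genes, and 0 of the 7 higher, against 2.07%. At an unadjusted p under 0.05 it had 2 of the 7, TET3 and TDG, against 26.4% of all tested genes. TET3 was also the 1 gene of the 7 that was at least 1.5-fold lower in both pairs, which held for 1.61% of all tested genes. The call was close to the threshold: the adjusted p was 0.0511 with a pseudocount of 0.1, 0.0521 with a pseudocount of 5, 0.367 with no filter and 0.129 in limma without a trend, while the direction did not change. A lower value may reflect fewer cells that express a gene or less RNA per cell, which cannot be told apart in bulk RNA.

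The word GTGAAAG was singled out for siMYCN from earlier results of these data, so its choice is not independent of the values here. It occurred in 2 places of the TET3 3′ UTR, in 1 of the TET2 3′ UTR read here and in none (0) of the other 6 genes. It occurred in the 3′ UTR of 15.5% of tested genes. Genes with the word had longer 3′ UTRs, with a median of 3190 bases against 1274.5 for genes without it. Their median siMYCN log2 fold change was 0.021, against 0.063 for genes without it. The part of this word in the TET3 difference was not tested.

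TDG, the glycosylase that excises formylcytosine and carboxylcytosine, lies at chr12:103965804-103988874 on the plus strand (ENSG00000139372.14, same annotation). It stood at 112 with siMYCN and let-7a and 108 with siMYCN and miRCon, against 82.9 with siCon and let-7a and 89.0 with siCon and miRCon. Here too the siMYCN and siCon libraries did not overlap, now with siMYCN above. The log2 differences were 0.43 with let-7a and 0.28 with miRCon, or 0.36 ± 0.0851 over both pairs (limma, adjusted p = 0.078, unadjusted p = 0.00768). Being higher in both pairs was common, at 43.2% of all tested genes. With the sign kept, 84.2% of tested genes had a lower siMYCN effect than TDG. With TET3 lower and TDG higher, the ratio of their levels was 6.77 and 7.03 in the siMYCN libraries with let-7a and with miRCon, against 2.95 and 3.19 in the siCon libraries with let-7a and with miRCon. An annotated pseudogene bears the name TDGP1, and how reads shared with it were counted is not given in the sources used here.

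The maintenance pair was lower with siMYCN in both pairs of libraries. DNMT1 stood at 60.4 with siMYCN and let-7a and 63.0 with siMYCN and miRCon, against 72.1 with siCon and let-7a and 71.2 with siCon and miRCon. These groups did not overlap, and the log2 fold change was -0.21 ± 0.0887 over both pairs (limma, adjusted p = 0.203). UHRF1 stood at 52.2 and 61.0 in the siMYCN libraries with let-7a and with miRCon, against 60.8 and 71.6 in the siCon libraries with let-7a and with miRCon. Its lowest value was in the doubly treated library and its highest in the control, while both single treatments gave nearly the same level, so the siMYCN and siCon values overlapped. Its log2 fold change was -0.22 ± 0.0894 (limma, adjusted p = 0.193). Together with TET3, these made 3 of 7 genes lower in both pairs, where 27.4% of all tested genes were.

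Genes of DNA replication were read as a list because DNMT1 and UHRF1 act in S phase, and limma called none of them (0). Of 18 S phase genes tested, 16 had a siMYCN effect below 0, with a median log2 fold change of -0.19, against 0.056 for all tested genes, of which 41.7% were below 0. Their summed levels were 2384 and 2758 with siMYCN against 2871 and 2856 with siCon, each with let-7a and then with miRCon. At an unadjusted p under 0.05 there were 5 of the 18, all lower, where 26.4% of all tested genes were under it in either direction. The replication helicase subunits MCM6 (-0.50, limma adjusted p = 0.0507) and MCM4 (-0.33, limma adjusted p = 0.0634) came closest among those named, and the licensing factor CDT1 had -1.14 with let-7a and -0.17 with miRCon. Their part in the DNMT1 and UHRF1 values was not tested.

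The de novo enzymes showed no shared direction. DNMT3A stood at 47.6 with siMYCN and let-7a and 39.4 with siMYCN and miRCon, against 46.7 with siCon and let-7a and 44.4 with siCon and miRCon. The siMYCN library with miRCon was the lowest and that with let-7a the highest, so the groups overlapped, with log2 differences of -0.17 with miRCon and 0.027 with let-7a (limma over both pairs, -0.071 ± 0.107, adjusted p = 0.706). DNMT3B, under the filter, stood at 4.16 and 3.61 with siMYCN, against 3.45 and 3.36 with siCon, each with let-7a and then with miRCon. Its siMYCN values were above its siCon values, but by less than 1 unit and with no test. The level of DNMT3A was between 10.9 and 13.5 times that of DNMT3B in each library.

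TET1, the TET enzyme best known from embryonic stem cells, stood at 14.2 with siMYCN and let-7a and 19.5 with siMYCN and miRCon, against 15.3 with siCon and let-7a and 18.9 with siCon and miRCon. These values grouped by mimic and not by siRNA, and the siMYCN log2 fold change was -0.033 ± 0.141 (limma, adjusted p = 0.904). TET2, a frequent target of mutation in blood cancers, stood at 6.78 and 7.10 with siMYCN, against 6.03 and 7.85 with siCon, in the same order of mimics. Its siMYCN values lay between the siCon values, and the limma estimate was 0.009 ± 0.203 (adjusted p = 0.982), or -0.045 with values rescaled by median ratios. TET3 differed with siMYCN by more than TET1 and TET2, though the differences between their effects were not tested.

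The summed level of the 3 TET genes was 37.5 and 42.0 with siMYCN, against 49.4 and 54.7 with siCon, each with let-7a and then with miRCon. TET3 made up 44.2% and 36.7% of that sum with siMYCN, against 56.8% and 51.1% with siCon. In the siMYCN library with miRCon, TET1 was the most abundant of the 3 with 46.4% of the sum, and TET3 was the most abundant in the other libraries. The sum of the 3 DNMT genes varied less, at 112 and 106 with siMYCN against 122 and 119 with siCon.

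**Figure D2:**
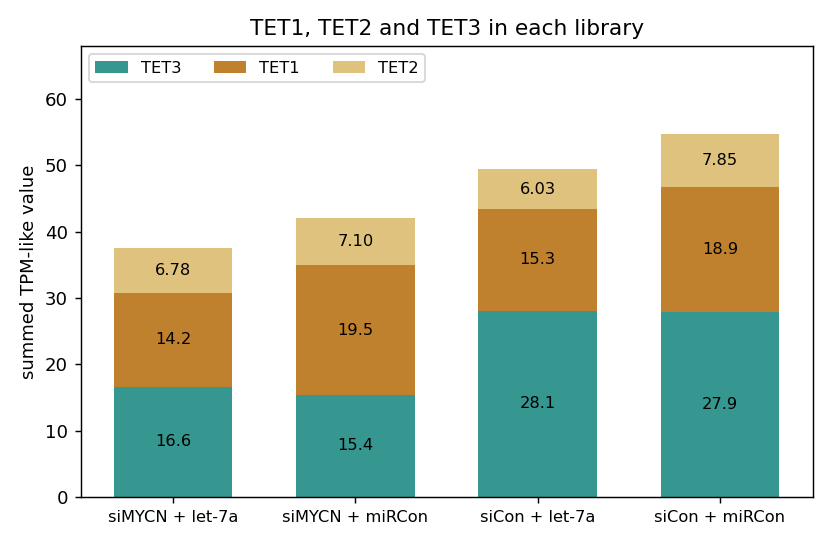
Stacked TPM-like values of TET3, TET1 and TET2 (vertical axis) in the 4 libraries, with the value of each gene printed in its segment. The TET3 segment is 16.6 and 15.4 in the siMYCN libraries, against 28.1 and 27.9 in the siCon libraries, while the TET1 segment is lower with let-7a in both siRNA states.

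The let-7a comparison asks which RNAs were lower with the mimic. TET1, TET2 and UHRF1 were lower in both pairs, and none of them passed the test over all genes. TET3, the gene with the most let-7 matches of at least 7 bases, was not lower. Limma called 0 of the 7 tested genes at an adjusted p under 0.05, as it called 0 (0.0%) of all 9324 genes. At an unadjusted p under 0.05 it had 2 of 7, TET1 and UHRF1, both lower, where 4.71% of all tested genes were lower at that p.

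TET1 stood at 14.2 with let-7a and siMYCN and 15.3 with let-7a and siCon, against 19.5 with miRCon and siMYCN and 18.9 with miRCon and siCon. The let-7a and miRCon libraries did not overlap. Its percent change was -27.2% with siMYCN and -19.2% with siCon, and its log2 fold change over both pairs was -0.36 ± 0.141 (limma, adjusted p = 0.663, unadjusted p = 0.0486). Of the 9324 tested genes, 447 had a lower let-7a effect. The annotated 3′ UTR of TET1 (2668 bases) held none of the seed words shown above. A pseudogene named TET1P1 is annotated, and the division of reads with it is unknown.

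UHRF1, with 1 of the 7mers, stood at 52.2 with let-7a and siMYCN and 60.8 with let-7a and siCon, against 61.0 with miRCon and siMYCN and 71.6 with miRCon and siCon. The change was nearly equal in the pairs, at -14.4% with siMYCN and -15.0% with siCon. Its log2 fold change was -0.23 ± 0.0894 (limma, adjusted p = 0.663, unadjusted p = 0.0498), and 13.4% of tested genes had a lower one. DNMT1, with no match, had log2 differences of -0.058 with siMYCN and 0.018 with siCon (limma over both pairs, -0.020 ± 0.0887, or 0.014 with rescaled values). The ratio of DNMT1 to UHRF1 was therefore higher with let-7a, at 1.16 with siMYCN and 1.19 with siCon, against 1.03 and 0.995 with miRCon. The fibroblast marker LUM, an extracellular matrix proteoglycan, was also lower in both let-7a libraries, at 83.9 with let-7a and siMYCN and 91.2 with let-7a and siCon, against 123 with miRCon and siMYCN and 116 with miRCon and siCon (log2 fold change -0.45 ± 0.0886, limma adjusted p = 0.663). All 4 tested fibroblast markers had a let-7a estimate below 0, as had 57.7% of all tested genes. LUM alone of the 4 was lower in both pairs. DCN differed by 0.294 with siMYCN and -0.333 with siCon, COL3A1 by -0.449 and 0.031, and COL1A1 by -0.224 and 0.04. The summed levels of all 5 markers in the list were 155 and 152 with let-7a against 198 and 181 with miRCon, each with siMYCN and then with siCon. Their part in the TET1 and UHRF1 values was not tested.

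TET3, with its 8mer and 2 other 7mers, had log2 differences of 0.10 with siMYCN and 0.007 with siCon (limma over both pairs, 0.054 ± 0.128, adjusted p = 0.92). Its let-7a effect was above that of 69.6% of tested genes. The tested genes whose best match was an 8mer had a median let-7a log2 fold change of -0.084, and those with no match one of -0.023. TET2, with a 7mer in the 3′ UTR read here, was lower with let-7a in both pairs, at -0.057 with siMYCN and -0.33 with siCon. Its estimate of -0.20 ± 0.203 was no larger than its SE (limma, adjusted p = 0.825). DNMT3A had the highest let-7a estimate of the 7, with differences of 0.27 with siMYCN and 0.071 with siCon (limma over both pairs, 0.17 ± 0.107, adjusted p = 0.72). DNMT3B had a 7mer and differences of 0.16 and 0.031 in the same order. TDG had 0.052 with siMYCN and -0.10 with siCon, and its limma estimate of -0.025 became 0.009 with rescaled values. In all, 3 of 7 tested genes were lower with let-7a in both pairs, where 33.5% of all tested genes were, 2 of 7 were higher in both, where 22.6% were, and 2 of 7 had opposite signs, as 44.0% did.

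**Figure D3:**
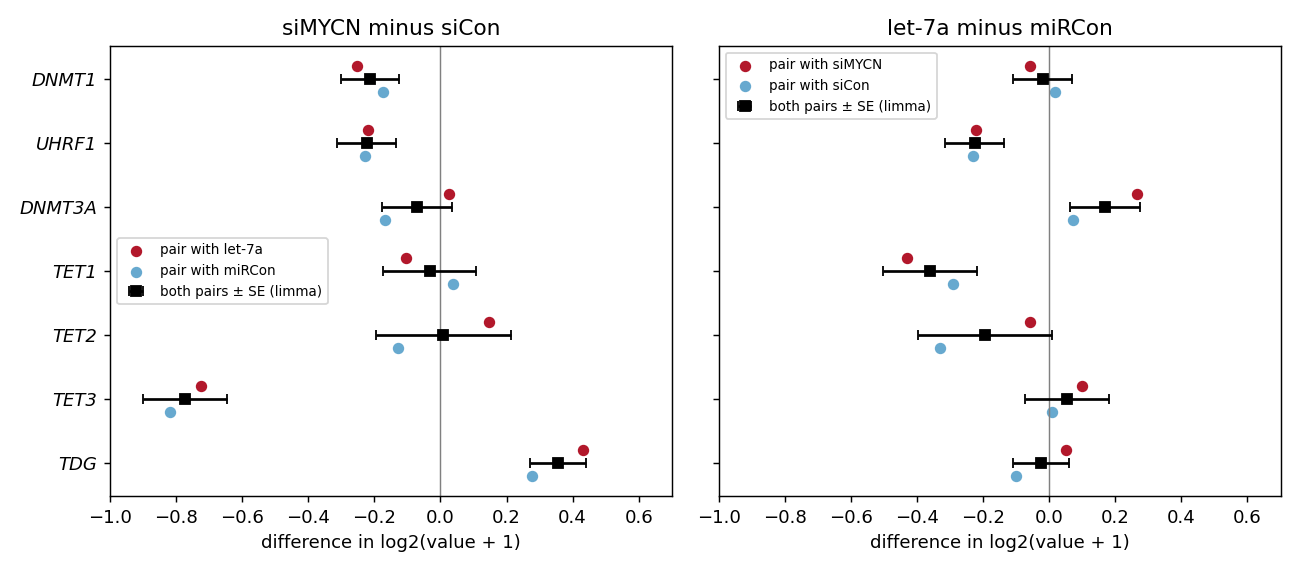
Differences in log2(value + 1) for the 7 tested genes, siMYCN minus siCon (left) and let-7a minus miRCon (right), with 1 coloured point per pair of libraries and black squares for the limma estimate ± SE. TET3 stands apart on the left at -0.73 and -0.82, and TET1 has the lowest estimate on the right at -0.36.

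Set against the control library alone, the doubly treated library showed both treatments together, with no test because each side is 1 library. TET3 was at 16.6 in siMYCN with let-7a against 27.9 in siCon with miRCon, a change of -40.7% and a log2 difference of -0.72. UHRF1 was at 52.2 against 71.6 (-27.2%), TET1 at 14.2 against 18.9 (-25.1%), DNMT1 at 60.4 against 71.2 (-15.1%) and TET2 at 6.78 against 7.85 (-13.6%). TDG was at 112 against 89.0 (26.0%), DNMT3B at 4.16 against 3.36 (24.0%) and DNMT3A at 47.6 against 44.4 (7.15%). UHRF1 was the 1 gene of these whose lower value held for each treatment in each pair. At least 1.5-fold lower were TET3 alone of the 7 tested genes and 5.97% of all tested genes. The siMYCN effect of none (0) of the 7 genes differed at least 1.5-fold between the mimics, where 10.0% of all tested genes did.

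Genes that work around these enzymes were read as lists. Over all tested genes, limma called 3.43% in either direction with siMYCN, and 26.4% had an unadjusted p under 0.05. Of 9 methyl-CpG readers and similar proteins tested, limma called 0 with siMYCN and had 3 at an unadjusted p under 0.05, all higher: ZBTB33, which encodes Kaiso (0.34), MBD4, a glycosylase that like TDG removes thymine opposite guanine (0.30), and MBD3, of the NuRD complex (0.29). Their median log2 fold change was 0.12, against 0.056 for all tested genes. Of 10 tested partners of maintenance methylation, 0 were called and 3 had an unadjusted p under 0.05, 1 higher and 2 lower. Lowest were the deacetylase HDAC1 (-0.40, limma adjusted p = 0.0615) and HELLS (-0.36, limma adjusted p = 0.108), the remodeller that opens chromatin to DNMT1. HELLS was at 95.3 and 105 with siMYCN against 109 and 152 with siCon, so that 1 library, the control, was far above the others.

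Of 10 tested TET cofactors and partners, limma called 0 with siMYCN and had 5 at an unadjusted p under 0.05, 3 higher and 2 lower, beside the 26.4% of all tested genes. CXXC4 and CXXC5 are zinc finger proteins that bind CpG sites and TET2. CXXC5 was at 83.9 and 78.5 with siMYCN against 65.2 and 53.1 with siCon (0.46, limma adjusted p = 0.0644), and CXXC4 at 12.4 and 12.3 against 17.2 and 21.0 (-0.58, limma adjusted p = 0.0949). IDH3A, of the enzyme that makes oxoglutarate in mitochondria, had a log2 fold change of 0.61. Of 12 tested genes for base excision repair after TDG, limma called 0 and had 2 at an unadjusted p under 0.05, 1 in each direction. GADD45G, a stress protein linked to demethylation, had the lowest estimate of -0.996 and differed most between the pairs (-0.40 with let-7a and -1.59 with miRCon). Its levels were low, at 8.13 and 3.2 with siMYCN against 11.1 and 11.6 with siCon, each with let-7a and then with miRCon. The siMYCN library with miRCon was thus far below the others. The repair genes XRCC1 (0.36) and POLB (-0.37) did not pass.

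The S-adenosylmethionine and folate cycles supply the methyl group. Of 11 tested genes there, limma called 1 with siMYCN, which was lower, as were 1.36% of all tested genes. This was MTR, the methionine synthase, at 35.7 and 39.4 with siMYCN against 53.8 and 61.0 with siCon, each with let-7a and then with miRCon. The groups did not overlap, and the log2 fold change was -0.60 ± 0.0976 (limma, adjusted p = 0.0469). The call was lost with a pseudocount of 5 (limma adjusted p = 0.051), without a trend (0.132) and with no filter (0.367). MTRR, which reactivates that enzyme, had 1.08 with let-7a and 0.49 with miRCon (0.78 ± 0.242 over both, limma adjusted p = 0.124). With let-7a, limma called 0 genes of any of these lists, and at an unadjusted p under 0.05 it had HELLS (-0.30) and CDCA7L (-0.29) lower among the maintenance partners, and CCNE2 (0.37) higher among the S phase genes, of which 17 of 18 were below 0, where 57.7% of all tested genes were. At an unadjusted p under 0.05 with let-7a were 7.48% of all tested genes. Other let-7a estimates of the largest size in their lists were those of the endonuclease gene APEX1 (0.43), D2HGDH (0.38), which clears hydroxyglutarate, SHMT1 (-0.36), of the folate cycle, and the readers MBD2 (-0.22) and MBD1 (0.21).

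**Figure D4:**
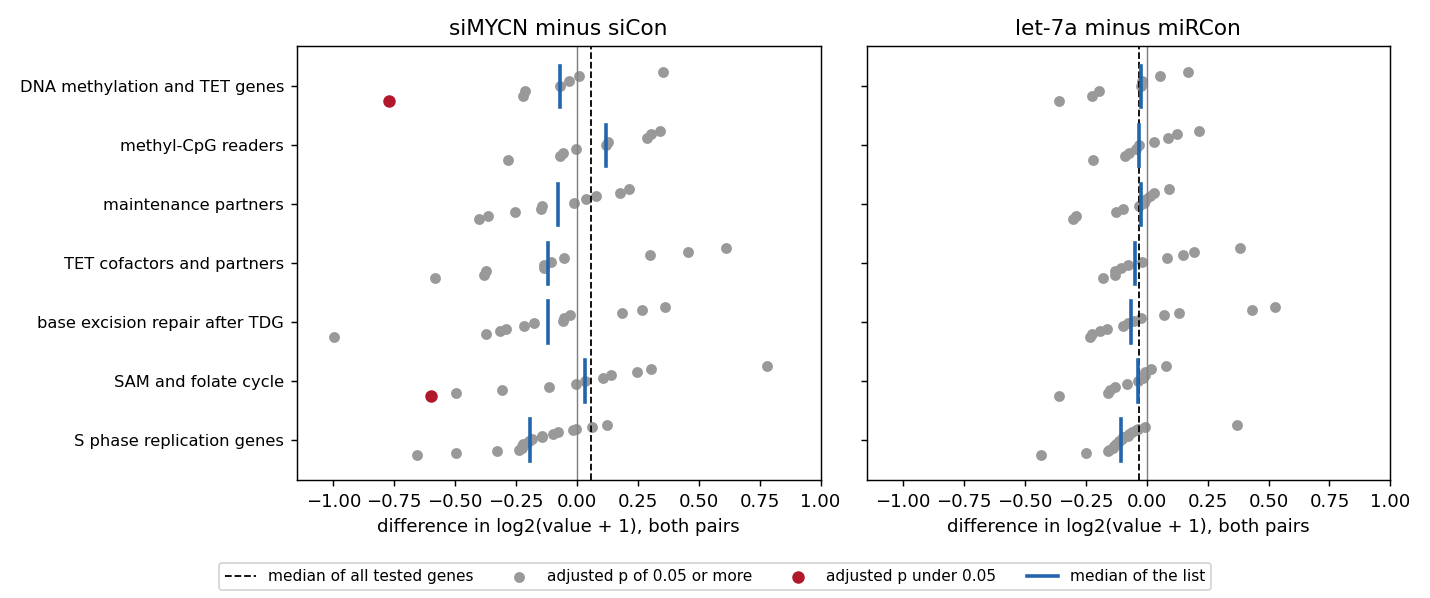
Estimates of limma over both pairs for every tested gene of each list (grey, or red where the adjusted p is under 0.05), siMYCN minus siCon on the left and let-7a minus miRCon on the right, as differences in log2(value + 1). Blue bars are list medians and the dashed line the median of all tested genes (0.056 and -0.031), and the red points are TET3 (-0.77) and MTR (-0.60).

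By the distance between centred log2 values over the 4 libraries, the genes most like TET3 among the tested ones were CYGB (0.078), HEATR5A (0.0796) and DDHD2 (0.0946). CYGB, which encodes cytoglobin, was at 269 and 269 with siMYCN against 448 and 457 with siCon, each with let-7a and then with miRCon. HEATR5A was at 13.6 and 12.7 against 21.8 and 22.1, and DDHD2, a phospholipase gene, at 18.7 and 16.9 against 32.6 and 29.6. This likeness rests on 4 libraries and says nothing of function.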

How the data were processed

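RNA was measured in 4 libraries, 1 per group, grouped by their labels. The deposited table holds natural log values, 1 per gene and library. That the base is e was read from the sums: back-transformed as exp(x) - 1, the values of a library add up to 855811 to 862049, while base 2 would give 143211 to 147588. Per the submitters' processing notes, the names given are HISAT 0.1.6, Salmon 0.3.2 and GRCh38, without their roles. Nothing in the sources gives the annotation, filters or log step. Such values keep no depth, so no counting error was computed. Of 19837 rows, 11 vector and 92 spike-in rows were left out, leaving 19734; 28 gene names had turned into dates and were not named.

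The 9324 genes whose mean reached 5 were tested with limma-trend 3.58.1 (R 4.3.3) on log2 values after adding 1, fitting siRNA and mimic additively, with 1 residual and 4.3 prior degrees of freedom. Fold changes on this scale understate the change of low genes. A rule of size of 1.5-fold in both pairs, which share no library, was added. Named genes were the 8 members, MYCN, and from each list the 3 with the largest siMYCN and the 2 with the largest let-7a effect in size; for likeness, the 3 nearest genes to the member with the widest range. Not every gene so named is reported here. Members, lists and the GTGAAAG word were chosen with earlier results of these data known. Python 3.11.15, pandas 2.3.3, NumPy 2.4.6 and matplotlib 3.10.9 were used. GENCODE release 29 gave coordinates and 3′ UTRs, and RefSeq tables gave let-7a and promoters, with all 8 genes matched. The DNMT3B window (chr20:32779602-32779901) lies inside the gene, after its GENCODE start at 32762385, so the sequence at that start was not read. The settings varied were the pseudocount (0.1, 5), the filter (none, 20), the scaling (median ratios), the variance model (no trend, robust), the pairs used and the fold.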

Additional observations from a re-analysis of the deposited data

Results flagged for a closer look

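The results below are those in which an effect had one sign in one pair of libraries and the other sign in the other pair. With 1 library per group these differences were not tested, and 29.4% of all tested genes had opposite siMYCN effects and 44.0% opposite let-7a effects. The siMYCN log2 difference of DNMT3A was 0.027 with let-7a and -0.169 with miRCon. That of TET1 was -0.104 with let-7a and 0.038 with miRCon. TET2 had siMYCN differences of 0.147 with let-7a and -0.128 with miRCon. For DNMT1, the let-7a difference was -0.058 with siMYCN and 0.018 with siCon. For TDG, it was 0.052 with siMYCN and -0.102 with siCon.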

How the results depend on the processing

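Of 94 estimates for single genes under other settings, 87 kept their direction and their side of the threshold, 4 kept their direction and lost the call, all for TET3 with siMYCN, and 3 changed sign. The siMYCN effect of TET3 ranged from -0.832 to -0.654 with adjusted p from 0.0204 to 0.367 in limma; it was called with a mean of at least 20, with rescaled values and with robust variance, and the number of called members was 0 with either pseudocount, with no filter and without a trend. With rescaled values the siMYCN effect of TET2 became -0.045 and the let-7a effects of DNMT1 and TDG became 0.014 and 0.009. In single pairs, the siMYCN effects of DNMT3A with let-7a (0.027), TET1 with miRCon (0.038) and TET2 with miRCon (-0.128), and the let-7a effects of DNMT1 with siCon (0.018) and TDG with siMYCN (0.052), were opposite in sign to the estimate over both pairs. Over all genes, limma called 320 with siMYCN (193 higher, 127 lower), 506 at a mean of at least 20, 751 with rescaled values (343 higher, 408 lower), 0 with no filter and 0 without a trend, where 2457 and 2221 had an unadjusted p under 0.05. With let-7a it called 0 under every setting, with 466 to 1161 genes at an unadjusted p under 0.05. A smaller fold and a fold of 2 in both pairs gave 1541 and 64 genes with siMYCN, against 416 at 1.5, and 326 and 7 with let-7a, against 43. Why the counts moved was not tested, other than that a larger or smaller fold admits fewer or more genes. No paired analysis was possible because the labels carry no replicate numbers to block on, beyond the pairing by mimic and by siRNA that the additive fit already holds. Low genes such as DNMT3B and TET2 are limited by unknown depth.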

Other observations

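Germline genes that promoter methylation keeps silent in most tissues were mostly at or near 0 in these cells. Of 18 measured, 11 were at 0 in all 4 libraries, and 1, TDRD1, was above the filter. TDRD1, a Tudor protein of the piRNA pathway, was at 47.0 with siMYCN and let-7a and 49.2 with siMYCN and miRCon, against 44.7 with siCon and let-7a and 46.9 with siCon and miRCon. It thus varied little between libraries, with a siMYCN log2 fold change of 0.068 ± 0.0969 (limma, adjusted p = 0.691). The highest value of any of the other 17 genes was 1.22, for TEX19.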
